A study of Homo sapiens with 6 samples.

Results

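The baseline transcriptome of HEK293 cells was described from the 2 empty-vector (EV) libraries, chosen by their labels out of the 6 libraries of the series. HEK293 is an established human line derived from embryonic kidney cells transformed with adenovirus DNA. Both EV cultures were transiently transfected with the PX459 plasmid, which encodes Cas9 and a puromycin resistance gene, with no guide against a gene. They were exposed to puromycin for 36 h and grown out for 2 weeks before RNA was taken, and the labels call them biological duplicates. RNA was depleted of ribosomal RNA and sequenced as strand-specific paired-end reads of 50 bp. All statements below concern these 2 libraries, and no library with guides was compared with them. The libraries with guides entered only an alternative scaling (DESeq2 size factors), which was estimated over all 6 libraries.

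Although the line is named for the kidney, the mature kidney is built of many cell types with separate gene programs. Nephron progenitors use transcription factors such as SIX2 and PAX2, tubule cells carry transporters for salts, sugars and water, and podocytes form the filtration barrier. The adrenal gland lies beside the kidney in the embryo, with a cortex that makes steroids and a medulla of chromaffin cells that make catecholamines and share many genes with neurons. A cultured line need not keep any of these programs, so the markers of each were read one by one.

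The libraries held 24883624 and 27845834 counts over 57773 genes. Levels are given as CPM, the count of a gene scaled to a common library total, and 1 CPM was worth 24.9 and 27.8 counts. A gene with 0 counts could be at up to 0.121 and 0.108 CPM, the level of 3 counts. These limits cover counting error only, as reads carried no molecular identifiers. A gene was called expressed at 1 CPM or more in both libraries, silent with fewer than 3 counts in each, and low otherwise.

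By this rule 16780 genes were expressed, which is 29.0% of the table, and 24553 genes had no count in either library. A level of 10 CPM in both libraries was reached by 10476 genes, 100 CPM by 2147 and 1000 CPM by 52. Nuclear protein-coding genes made up most of the expressed genes, with 13290 of 19391 expressed (68.5%) and 3547 silent (18.3%). They took 84.7% ± 0.0998 (SD, n = 2) of all counts. Genes that the annotation classes as long noncoding RNA (lncRNA) took 3.35% ± 0.114, with 2035 of 13043 expressed. Pseudogenes took 0.682% ± 0.00627, with 771 of 13979 expressed. The 13 mRNAs of the mitochondrial genome were all expressed and took 2.61% of the counts of replicate 1 and 2.82% of replicate 2. No annotated nuclear ribosomal RNA gene reached 1 CPM in libraries from which ribosomal reads had been removed by depletion and by mapping. For 2235 gene identifiers no entry was found in the annotation used here, and these took 4.19% ± 0.150 of counts.

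**Figure D1:**
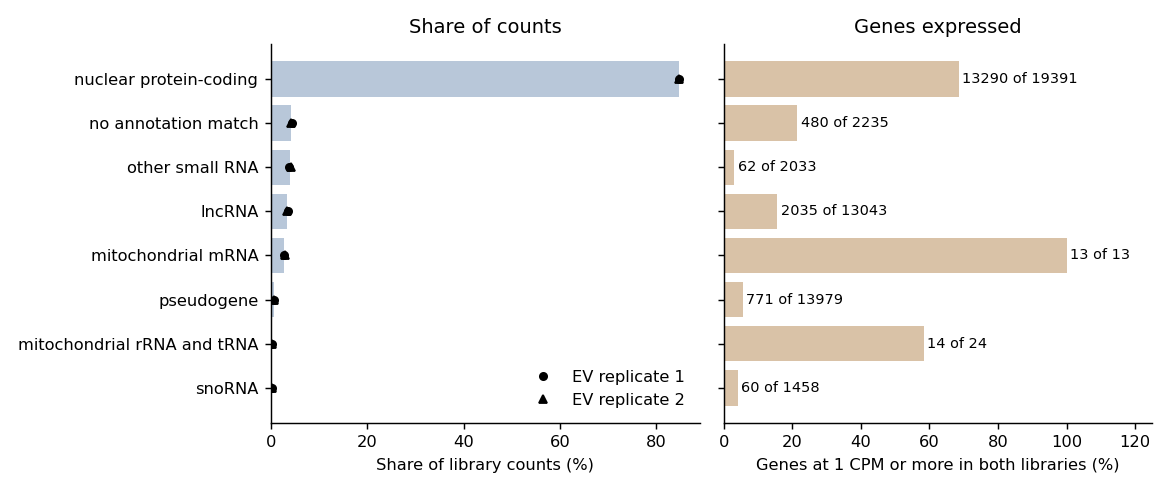
The left bars give the mean share of library counts (percent) in each gene class, with a circle for EV replicate 1 and a triangle for EV replicate 2. The right bars give the percent of genes of the class at 1 CPM or more in both libraries, with 13290 of 19391 nuclear protein-coding genes and 13 of 13 mitochondrial mRNAs expressed. Classes with under 0.1% of counts are left out.

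The genes that took most of the counts were mainly noncoding RNAs and identifiers without a symbol in the annotation used here. That annotation differs from the Ensembl gene models used in counting, so a missing symbol does not mean an unnamed gene. ENSG00000258486, for which the annotation gave no match and so no class or length, had 25103 and 24508 CPM, or 2.48% of counts. RN7SK, the RNA that holds the transcription elongation factor P-TEFb in an inactive complex, had 18715 and 20658 CPM. RN7SL2, an RNA of the signal recognition particle that guides secreted proteins to the endoplasmic reticulum, had 14241 and 17306 CPM. RN7SL genes are near-identical copies, so the split of reads among them is uncertain. ENSG00000259001, classed as an lncRNA and without a symbol in the annotation (chr14:20811207-20811844 of GRCh37, minus strand), had 7888 and 6956 CPM. ENSG00000269900, again without a match, had 5196 and 3945 CPM. The others of the 15 genes with the most counts were EEF2, ACTG1, ACTB, RN7SL3, the mitochondrial mRNAs MT-ND4, MT-ND5, MT-CO1, MT-CO2 and MT-ATP6, and 1 that is not reported here. After ENSG00000259001, the genes of the annotation's lncRNA class reported with the most counts were as follows. MALAT1, which is retained in nuclear speckles, had 2162 and 2249 CPM. ENSG00000270066, with 427 bases of merged exons and no symbol in the annotation, had 350 and 396 CPM. The lncRNA class of ENSG00000259001 and ENSG00000270066 rests on this annotation alone. SNHG16, a host of small nucleolar RNAs, had 386 and 359 CPM, and KCNQ1OT1, the imprinted antisense transcript of KCNQ1, had 367 and 329 CPM. The 10 genes with the most counts took 9.51% and 9.79% of the libraries, while it took 1146 and 1134 genes to reach 50% of counts.

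Counts grow with the length of a gene, so levels of different genes were set in order per length, as CPM per kb of merged exons. CPM without length gives a share of the library and no order of levels. All 13 mitochondrial mRNAs ranked above every nuclear mRNA per kb of merged exons, but this order depended on the length used. GAPDH was at 1090 CPM per kb of merged exons, 1518 with the longest transcript and 2033 with the canonical transcript. On the latter scales it lay above MT-ND3, which was at 1198 on each. Per kb of canonical transcript GAPDH also lay above MT-ND5 (1991). ACTB (1870), ACTG1 (1796), RPS2 (1711) and RPL8 (1651) were among other nuclear genes above MT-ND3 on that scale. MT-CO2, a subunit of cytochrome c oxidase, led with 4420 ± 550 CPM per kb (SD, n = 2), and MT-ND3, a subunit of complex I, was the lowest with 1198 ± 75.5. The nuclear genes next in order were GAPDH, a glycolytic enzyme, with 1090 ± 11.5 CPM per kb and H1-4, a linker histone, with 1060 ± 91.9. The gap between them was smaller than the SD of H1-4. EEF2, which moves the ribosome along the mRNA, followed with 1018 ± 38.9, ACTG1, a cytoplasmic actin, with 851 ± 202 and RPL8, a ribosomal protein, with 818 ± 6.59. Replication-dependent histones such as H2BC12 (807 ± 22.3 CPM per kb), whose mRNAs end in a stem-loop in place of a poly(A) tail, came next. EEF2, ACTG1, RPL8 and H2BC12 lie outside the 15 highest and were added to this order after their values were seen. The order of nuclear genes also depended on the length used. Per kb of canonical transcript H1-4 ranked 12 among them, and H2BC12 (807) lay below RPS15 (931), which ranked 15. Of the 15 protein-coding genes highest per kb, 13 stayed in the group with the length of the longest transcript and 11 with that of the canonical transcript, the latter chosen after the data were seen.

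Kidney markers differed between the lists. Of the 14 nephron progenitor genes found in the table, 13 passed 1 CPM in both libraries and 8 passed 5 CPM. SALL1, a zinc finger factor needed for kidney formation, had 65.7 and 60.4 CPM in replicates 1 and 2, and HOXD11 had 52.5 and 45.7 CPM. SIX2, which maintains the progenitor state, had 14.5 and 13.0 CPM, WT1 had 11.2 and 12.4 CPM, and PAX2 had 5.63 and 6.86 CPM. The value of PAX2 rested on 140 and 191 counts. PAX8, the paired box factor often paired with PAX2 in the kidney lineage, was not expressed, with 2 and 3 counts. LHX1 was not analysed here.

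Markers of mature nephron segments were mostly not expressed. For the proximal tubule, which reabsorbs most of the filtrate, 5 of 16 genes passed 1 CPM in both libraries and 1 passed 5 CPM. LRP2, the endocytic receptor megalin, had 59.2 and 43.1 CPM, and its partner CUBN had 3.66 and 2.41 CPM. The organic anion transporters SLC22A6 and SLC22A8 had no count, and HNF4A, a master regulator of the tubule, had 1 and 2 counts. In the loop and distal tubule list 1 of 10 genes was expressed, the magnesium channel TRPM6 at 4.18 and 4.17 CPM, and none passed 5 CPM. UMOD, the most abundant protein of urine, and CASR, the calcium-sensing receptor, had no count. In the collecting duct list 3 of 12 genes were expressed, and 1 at 5 CPM. GATA3, a factor of the ureteric bud, had 47.9 and 54.2 CPM, whereas the water channel AQP2, its hormone receptor AVPR2 and the intercalated cell factor FOXI1 had no count. ATP6V1B1 is uncertain because 88% of its canonical exons overlap another gene on the same strand.

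The podocyte list reached 8 of 10, and 4 at 5 CPM. ACTN4, which crosslinks actin in many cell types, had 399 and 421 CPM, and the adaptor CD2AP had 90.3 and 80.5 CPM. NPHS1, the slit diaphragm protein nephrin, had 1.45 and 1.80 CPM (36 and 50 counts). TCF21 was silent with 2 and 1 counts. In all, 30 of 62 kidney genes in the table were expressed (48.4%), against 68.5% of all nuclear protein-coding genes.

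Of 29 adrenal markers 12 were expressed (41.4%). In the cortex list 5 of 15 genes were expressed, and 3 at 5 CPM. SCARB1, a receptor that takes up cholesterol from lipoproteins, had 109 and 110 CPM, while FDXR and FDX1, which pass electrons to mitochondrial P450 enzymes in many tissues, had 27.4 and 26.9 CPM and 23.3 and 21.9 CPM. CYP17A1, which makes androgens and cortisol precursors, was just above the threshold with 27 and 36 counts, and SULT2A1, a steroid sulfotransferase, had 2.65 and 1.72 CPM. NR5A1, the factor that defines steroid-making cells, was below the threshold with 16 counts in each library, or 0.643 and 0.575 CPM. STAR, which brings cholesterol into mitochondria, had 8 counts in each. CYP11B1 and CYP11B2, the enzymes of the last steps to cortisol and aldosterone, and MRAP, needed by the ACTH receptor, had no count. The value of MRAP is uncertain, since 70.2% of its exons overlap a gene on the opposite strand and the strand setting of counting is not given.

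For the medulla 7 of 14 genes were expressed, and 4 at 5 CPM. The transcription factor GATA2 had 80.1 and 90.2 CPM, ISL1 had 13.5 and 11.5 CPM and HAND2 had 11.9 and 11.2 CPM. The granin CHGB, a cargo of secretory granules, had 3.21 and 3.16 CPM. TH, the first enzyme of catecholamine synthesis, and the chromaffin factor PHOX2A had no count, and DBH and DDC, which act after TH, had at most 2 counts. PNMT, which makes adrenaline, had 1.65 and 1.62 CPM.

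Of the neuronal genes, 17 of 21 neuron markers (11 at 5 CPM) and 8 of 12 neural progenitor markers were expressed. Together this was 75.8%, near the 68.5% of all nuclear protein-coding genes. UCHL1, a deubiquitinase abundant in neurons, had 168 and 143 CPM. NEFM, the medium neurofilament, had 73.3 and 77.0 CPM, the adhesion molecule NCAM1 had 54.0 and 55.5 CPM and the enolase ENO2 had 46.8 and 40.4 CPM. Of the synaptic vesicle genes, SYP had 28.9 and 26.8 CPM and SYN1 3.09 and 3.91 CPM. Below the threshold, DCX, which marks migrating neurons, had 10 counts in each library. STMN2, a microtubule regulator of axons, had 2 and 3 counts, and ELAVL4, a neuronal RNA-binding protein, had 0 and 1. TUBB3 (5.30 and 5.67 CPM) is uncertain, since 93% of its canonical exons overlap another gene on the same strand. NEFL was not analysed here.

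Among progenitor markers SOX4 had 226 and 257 CPM, the RNA-binding protein MSI1 had 67.1 and 66.8 CPM, the intermediate filament NES 38.7 and 38.9 CPM, and PAX6 37.7 and 35.3 CPM. SOX2, which maintains neural stem cells, had 10.7 and 10.3 CPM, while FABP7, a marker of radial glia, had no count. Of 10 glial genes 6 were expressed, and 2 at 5 CPM. The glutamate transporter SLC1A3 had 40.3 and 34.3 CPM, the oligodendrocyte factor OLIG2 7.31 and 7.69 CPM, the myelin protein MBP 5.95 and 4.45 CPM and GFAP, the filament of astrocytes, 3.17 and 2.59 CPM. S100B and SOX10 had at most 2 counts.

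Other lineages ranged from mesenchyme (11 of 16 expressed) to hepatocyte (1 of 10). VIM, the intermediate filament of mesenchymal and most cultured cells, had 1028 and 1139 CPM, and CDH2, the neural and mesenchymal cadherin, had 157 and 169 CPM. The epithelial cadherin CDH1 had 6.83 and 5.42 CPM. Of the simple epithelial keratins, KRT18 had 78.4 and 90.9 CPM and KRT8 60.2 and 75.0 CPM, but KRT7 and KRT19 had no count. In the blood list 2 of 14 genes were expressed, HBB, GATA1 and CD3E had no count, and the pan-leukocyte marker PTPRC had 1 and 5 counts. ALB, the serum albumin of hepatocytes, had 1 count in each library and AFP had none. Of 10 pluripotency genes 6 were expressed. In counts, LIN28B, a blocker of let-7 maturation, had 2516 and 2554, POU5F1 had 100 and 111, and NANOG, which was not expressed, had 16 and 27. POU5F1 shares sequence with pseudogene copies and its reads may be split. In the endothelium list 2 of 8 genes were expressed, the receptors TIE1 at 1.53 and 1.80 CPM and KDR at 1.13 and 1.19 CPM, while the junction cadherin CDH5 had 4 and 2 counts. Of 10 muscle genes 3 were expressed, with the embryonic myosin MYH3 at 8.56 and 6.72 CPM, and MYF5, an early muscle factor, had no count. Of 10 germline genes 2 were expressed, PRAME at 9.40 and 9.27 CPM and SYCP3, a part of the meiotic chromosome axis, at 1.49 and 1.47 CPM. DAZL, MAGEA3, MAGEA4 and CTAG1B had no count, and CTAG1B has a near-identical copy. Over all 18 lineage lists, 109 of 226 markers were expressed (48.2%) and 52 were silent, beside 68.5% and 18.3% of all nuclear protein-coding genes.

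**Figure D2:**
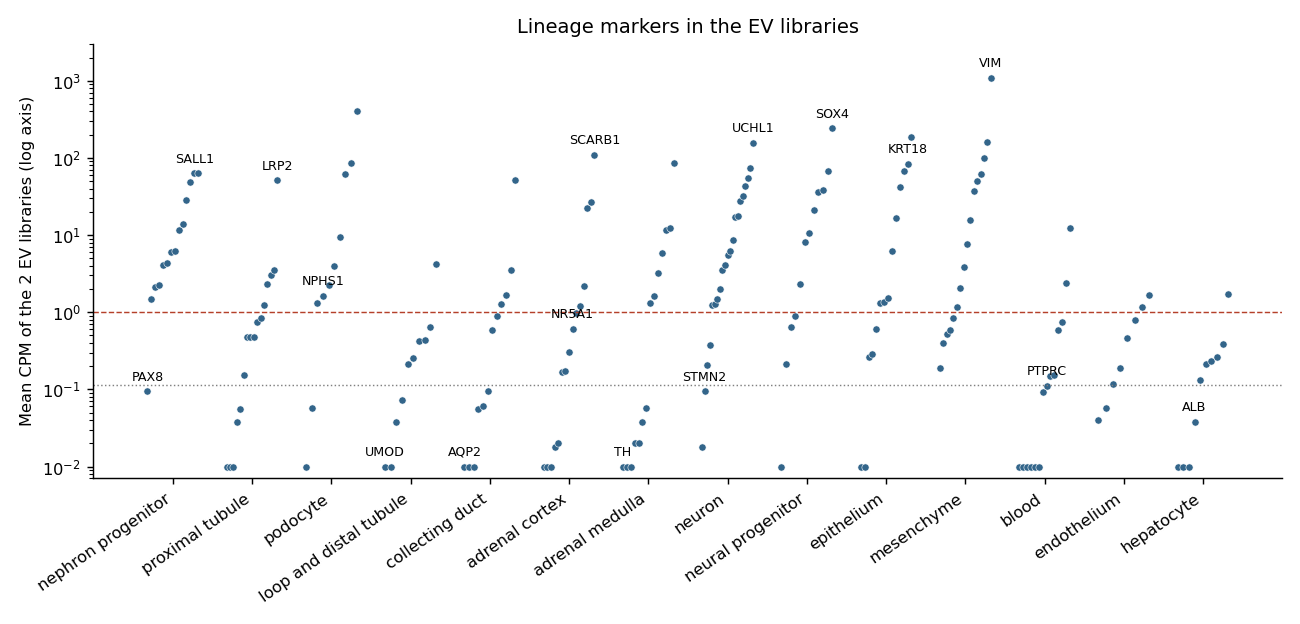
Each point is 1 marker gene, at its mean CPM over the 2 EV libraries on a log axis, sorted within its list. The dashed line is 1 CPM, the dotted line is the level of 3 counts in a library of mean size, and genes with 0 counts in both libraries are drawn at the bottom edge. UMOD, AQP2 and TH sit at that edge, while SALL1, LRP2, UCHL1 and SOX4 lie above 10 CPM.

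Of 71 innate immune genes 27 were expressed. None of 9 interferon genes was expressed. IFNB1, IFNG, IFNA1, IFNK and the interferon lambda genes IFNL1, IFNL2 and IFNL3 had no count, and IFNE had 2 counts in each library. IFNL2 and IFNL3 are near-identical, so reads from them could have been lost to both. None of 15 cytokine genes was expressed either, and IL6, IL2 and CXCL10 were among 7 without a count. IL10 came closest with 14 and 23 counts.

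Of 21 nucleic acid sensing genes 16 were expressed (76.2%), near the 68.5% of all nuclear protein-coding genes, and 9 at 5 CPM. MAVS, the mitochondrial adaptor of the RNA sensors, had 117 and 121 CPM, IRF3, the factor that turns on interferon genes, 49.7 and 48.2 CPM, and the receptor chain IFNAR1 43.2 and 44.7 CPM. The RNA sensors RIGI and IFIH1 had 5.02 and 4.92 CPM and 3.50 and 4.45 CPM. CGAS, the cytosolic DNA sensor, was near the threshold with 1.41 and 1.22 CPM, and STING1, which acts after it, had 5.10 and 6.46 CPM. TLR3, which senses double-stranded RNA, had 4.54 and 5.42 CPM, while TLR8 had no count. TLR9 had 1 and 0 counts, but 99.7% of its canonical exons overlap another gene on the same strand.

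In the list of cell-surface Toll-like receptors and their signal carriers 8 of 14 genes were expressed. The kinase IRAK1 had 362 and 368 CPM and the adaptor MYD88 had 7.15 and 7.69 CPM, whereas TLR4, the lipopolysaccharide receptor, had no count and its cofactor LY96 had 1 and 0. TLR5, which binds flagellin, had 1.93 and 0.790 CPM, so that it passed 1 CPM in replicate 1 and not in replicate 2. In the inflammasome list 3 of 12 genes were expressed (6 at 0.5 CPM), with the sensor NLRP1 at 18.8 and 17.7 CPM. The adaptor PYCARD, the proteases CASP1 and CASP5, and IL1B, the cytokine that CASP1 cuts, had no count in either library.

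Antigen presentation by class I was expressed in 14 of 15 genes (93.3%), beside 68.5% of all nuclear protein-coding genes. HLA-C had 238 and 243 CPM, HLA-B 150 and 136 CPM, B2M, the shared light chain, 63.1 and 58.5 CPM, and the peptide transporter TAP1 had 1008 and 1029 counts. HLA genes are polymorphic and alike, so their reads may be split or lost. PSMB8, an interferon-inducible proteasome subunit, was not expressed, with 10 and 4 counts. For class II, 7 of 10 genes passed 1 CPM, among them HLA-DPB1 at 8.52 and 10.5 CPM and the activator CIITA at 6.47 and 5.64 CPM. HLA-DRA, a chain of the main class II molecule, had 7 counts in each library and the invariant chain CD74 had 8 and 12.

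Metabolic genes showed which isozymes of each step the cells carried. Of 30 glycolysis genes 22 were expressed (73.3%), beside 68.5% of all nuclear protein-coding genes. PKM had 1408 and 1361 CPM, ALDOA 1082 and 1025 CPM and LDHB 754 and 691 CPM. The testis form PGK2 and the liver glucose transporter SLC2A2 had no count, and the liver pyruvate kinase PKLR had 1 and 0 counts. In gluconeogenesis and glycogen use, 6 of 11 genes were expressed. PYGL, a glycogen phosphorylase, had 232 and 222 CPM and mitochondrial PCK2 22.2 and 22.5 CPM. FBP1, which acts on the path to glucose, had 1 and 5 counts, and its paralog FBP2 had 0 and 2. Cytosolic PCK1 had 29 and 9 counts.

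Of 9 urea cycle genes 7 were expressed, ASS1 at 17.7 and 17.7 CPM, but ARG1, the liver arginase, had no count and OTC had 1 and 0. Drug metabolism genes reached 6 of 14. CYP3A5 had 16.4 and 12.9 CPM, while CYP3A4, the main drug-oxidizing enzyme of the liver, had 4 and 3 counts and UGT2B7 had none. Of 13 drug transporters 8 were expressed, with the exporter ABCC1 at 144 and 131 CPM and ABCB1 at 13.5 and 16.3 CPM, and the uptake transporters SLCO1B1 and SLC22A2 at 0. In the 11 immune and metabolic lists without the glycolysis genes, 68 of 143 genes were not expressed and 36 of these were silent. The share expressed was 52.4%, beside 68.5% of all nuclear protein-coding genes, of which 18.3% were silent.

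**Figure D3:**
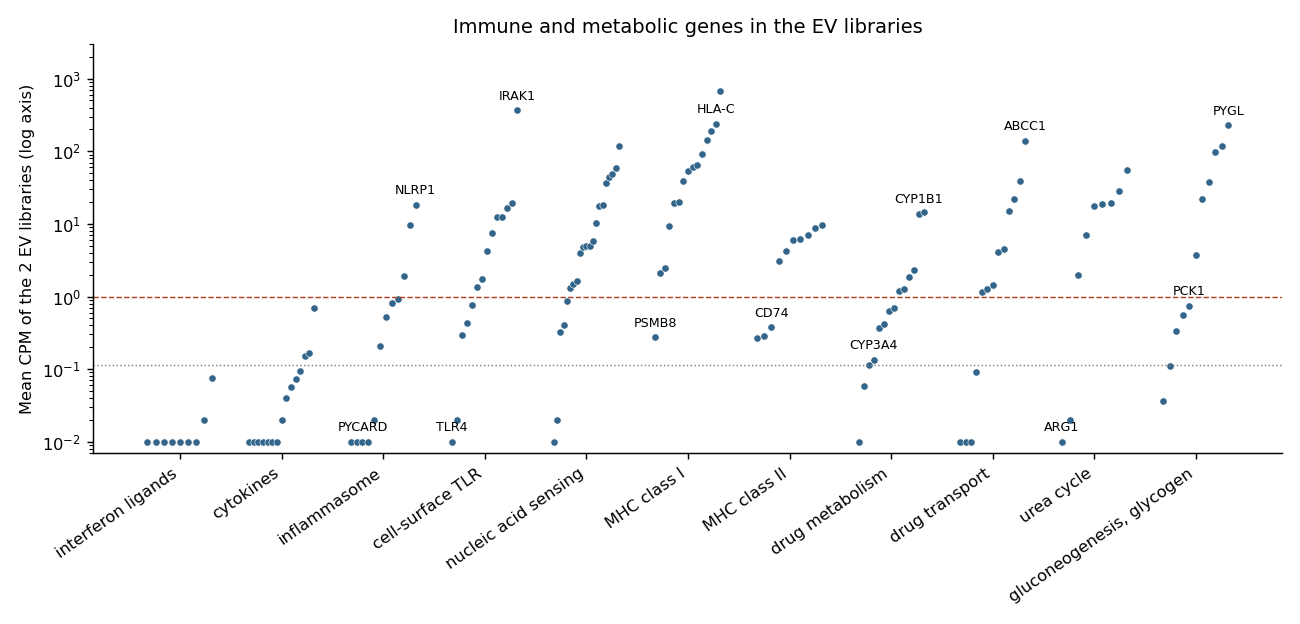
Each point is 1 gene of an immune or metabolic list, at its mean CPM over the 2 EV libraries on a log axis, sorted within its list. The dashed line is 1 CPM, the dotted line is the level of 3 counts in a library of mean size, and genes with 0 counts in both libraries are drawn at the bottom edge. All interferon and cytokine genes lie below the dashed line, and PYCARD, TLR4 and ARG1 sit at the edge.

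HEK293 cells are widely used to express receptors and channels, for which the genes already expressed form the background. Over the receptor lists 88 of 128 genes were expressed (68.8%), and over the channel lists 84 of 121 (69.4%). Both are near the 68.5% of all nuclear protein-coding genes. Of 58 G protein-coupled receptors 31 were expressed. SMO, which passes on the hedgehog signal, had 85.8 and 82.2 CPM, LGR4, a receptor for R-spondins, 84.6 and 80.1 CPM, and the GABA receptor chain GABBR1 54.2 and 47.0 CPM. Among receptors for small transmitters, the muscarinic CHRM3 had 4.62 and 4.70 CPM and the purinergic P2RY1 421 and 445 counts. DRD1, HTR1A, CHRM2, HRH2, ADRB3 and CASR had no count. Of 30 genes for G proteins, adenylyl cyclases, receptor kinases and arrestins, 26 were expressed, with GNAS, the stimulatory alpha subunit, at 669 and 674 CPM.

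Potassium channels were expressed in 28 of 35 genes. Of 25 sodium and calcium channel genes 16 were expressed, with the T-type calcium channel CACNA1H at 31.2 and 30.5 CPM, while the sodium channel SCN1A had no count. Ligand-gated channels were expressed in 8 of 21 genes, and GABRA5 and CHRNA1 had no count. PIEZO1, the mechanically gated channel, was among 32 of 40 other channels expressed, with 145 and 152 CPM. Receptor tyrosine kinases were expressed in 31 of 40 genes, IGF1R at 358 and 345 CPM, while ROS1 and MUSK had no count.

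Of 30 genes that viruses use to enter cells 24 were expressed. BSG had 495 and 461 CPM, CD81 257 and 251 CPM and CXADR, the coxsackievirus and adenovirus receptor, 43.9 and 39.0 CPM. CD4 had 1 count in each library. In the WNT pathway 41 of 53 genes were expressed (77.4%), CTNNB1 at 425 and 384 CPM, and WNT1 had no count.

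Of 23 Notch and hedgehog genes 20 were expressed (87.0%), beside 68.5% of all nuclear protein-coding genes. The receptor NOTCH2 had 469 and 421 CPM. The hedgehog effector GLI3 had 104 and 86.3 CPM. Below the threshold were the hedgehog ligands SHH with 12 and 14 counts, DHH with 18 and 15, and IHH with 0.442 and 1.08 CPM, which passed 1 CPM in replicate 2 alone. Integrins were expressed in 19 of 25 genes (76.0%), with ITGB1, the shared beta chain, at 155 and 155 CPM. The leukocyte chains ITGAM and ITGB7 had at most 8 counts. Of 26 cadherin and catenin genes 15 were expressed (57.7%), and none of the 26 had 0 counts in both libraries.

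Large gene families, chosen after the data were seen and read by symbol, are set beside the 68.5% expressed among all nuclear protein-coding genes. Of 369 olfactory receptor genes 2 were expressed and 331 had no count, and of 40 beta-defensin genes none was expressed. Of 500 genes with a ZNF symbol, most of which encode zinc finger proteins, 447 were expressed (89.4%), with a median of 14.5 CPM. Of 335 solute carriers 228 were expressed (68.1%), which is close to that share, and of 84 cytosolic ribosomal protein genes 82 were expressed, with a median of 374 CPM.

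All 20 replication licensing genes, all 9 chaperonin genes and all 19 reference genes were expressed. Of 21 actin and tubulin genes 17 were expressed, with TUBB at 2003 and 1951 CPM, whereas TUBB1, the platelet tubulin, and TUBA3C had no count. Of 18 genes of the proteasome core and its inducible and tissue forms 15 were expressed (83.3%), and of 8 translation elongation genes 7 were (87.5%). The share of actins and tubulins was 81.0%, and that of all nuclear protein-coding genes was 68.5%.

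Subunits of stable complexes were set side by side, per kb of canonical transcript. Their mRNA levels need not be equal, so the ranges do not measure how evenly genes were counted. The 8 subunits of the cytosolic chaperonin, which folds actin and tubulin, lay between 120 (CCT8) and 322 CPM per kb (CCT3), a range of 2.68-fold. MCM2 to MCM7, the replicative helicase, spanned 5.04-fold. The 13 constitutive subunits of the proteasome core found in the table, which enter the particle in equal numbers, spanned 25.3-fold, from PSMA2 at 7.74 to PSMA7 at 196 CPM per kb. PSMA1, PSMA2 and PSMA6, whose canonical exons overlap another gene on the same strand by more than 50%, were all at or below 20.9 CPM per kb, and the other 10 spanned 8.87-fold from PSMA5, which has no such overlap and was almost as low with 22.1. EEF1G, a subunit of the elongation factor 1 complex, had 5 and 7 counts, while its partner EEF1B2 had 219 and 215 CPM, and 99.5% of the canonical exons of EEF1G overlap another gene on the same strand. Of 17064 nuclear protein-coding genes with no such overlap 69.9% were expressed, and of 552 with over 80% overlap 26.6% were. The part of the overlap in these low counts was not tested. It bears on 16 of the 862 listed genes, which include IRF9, MC1R, P2RY11, CD68, ORAI3 and UGT1A1, and this reading was added after the data were seen.

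Promoters from RefSeq (GRCh38.p14), from 250 bases before to 50 bases after the start, were matched by symbol to 14970 nuclear protein-coding genes. The median number of CG dinucleotides was 26 in promoters of expressed genes and 6 in those of genes not expressed. A promoter with 15 or more CG was found for 82.5% of 10763 expressed genes, and for 27.1% of 4207 genes not expressed. The share was 15.8% for the 1774 genes with no count, 64.3% at 1 to 10 CPM and 91.7% at 100 to 1000 CPM. TATAAA, a core element that sets the start of transcription, was sought on the gene's strand 45 to 16 bases before the start. It lay there in 8.60% of genes not expressed, 1.66% of expressed genes and 3.61% of all 14970 matched genes. In the wider set of 27305 promoters, which includes promoters not matched to these genes, the share was 2.63%. Genes are not replicates, and these shares carry no test.

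**Figure D4:**
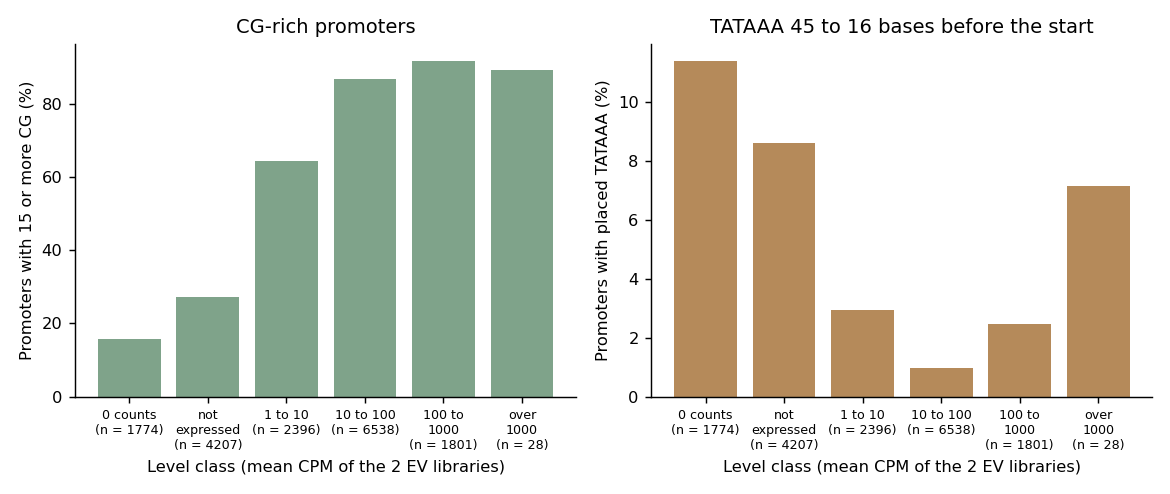
Bars give the percent of nuclear protein-coding promoters with 15 or more CG (left) and with TATAAA on the gene's strand 45 to 16 bases before the start (right), by level in the EV libraries, with the number of genes under each bar. The first bar of each panel, genes with 0 counts, is a subset of the second, genes not expressed. CG-rich promoters go from 15.8% to 91.7% at 100 to 1000 CPM.

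The promoters of 2 inflammasome genes with no count and of EEF2 show how far single genes depart from these shares. PYCARD (chr16:31202711-31203010, minus strand) has 23 CG, in the range of expressed genes, and IL1B (chr2:112836730-112837029, minus strand) has 2. EEF2 (chr19:3985414-3985713, minus strand) has 41 CG and also TATAAA 30 bases before its start. Capitals mark CG in the first pair and TATAAA in the last, and all are written on the gene's strand.
PYCARD: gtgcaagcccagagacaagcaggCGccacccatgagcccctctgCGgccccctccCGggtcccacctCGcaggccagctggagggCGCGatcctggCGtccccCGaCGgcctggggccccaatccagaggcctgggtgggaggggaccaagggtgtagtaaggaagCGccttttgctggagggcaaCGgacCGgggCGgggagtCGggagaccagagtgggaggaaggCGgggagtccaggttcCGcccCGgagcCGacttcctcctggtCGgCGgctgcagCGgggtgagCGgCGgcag
IL1B: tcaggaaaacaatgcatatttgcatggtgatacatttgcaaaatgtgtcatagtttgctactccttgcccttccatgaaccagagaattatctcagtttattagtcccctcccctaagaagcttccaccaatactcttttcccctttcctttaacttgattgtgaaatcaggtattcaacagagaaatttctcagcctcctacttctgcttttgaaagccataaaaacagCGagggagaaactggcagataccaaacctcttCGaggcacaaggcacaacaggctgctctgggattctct
EEF2: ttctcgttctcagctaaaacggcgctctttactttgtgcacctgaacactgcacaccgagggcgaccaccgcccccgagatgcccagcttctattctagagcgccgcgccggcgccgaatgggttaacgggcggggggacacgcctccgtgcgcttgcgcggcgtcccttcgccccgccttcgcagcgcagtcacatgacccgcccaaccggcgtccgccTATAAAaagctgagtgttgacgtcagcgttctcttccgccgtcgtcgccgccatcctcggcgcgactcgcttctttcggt

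In the count table PYCARD (ENSG00000103490) lies at chr16:31212807-31214771 of GRCh37, and 59.7% of its exons overlap a gene on the opposite strand, PYCARD-AS1, which had 23 and 15 counts. Reads were mapped as a strand-specific library, but how strand was set in counting is not given in the sources used here, so the 2 genes may not be told apart.

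The 2 libraries were then compared with each other, which asks whether they differ by more than counting error and compares no condition. Over 17273 genes with a mean of at least 1 CPM, the median log2 ratio of replicate 2 to replicate 1 was -0.01, and Pearson's r of log2 CPM across genes was 0.994, a description since genes are not independent replicates. Chi-square per degree of freedom was 8.31, where counting error alone gives about 1. The exact two-sided binomial test with Benjamini-Hochberg adjustment called 3150 genes (18.2%), 1446 higher and 1704 lower in replicate 2. The size of the differences was small for most genes, since 675 genes (3.91%) differed by more than 1.5-fold, 639 of these at 1 to 10 CPM. The common biological coefficient of variation from edgeR, here the spread between the 2 libraries beyond counting, was 0.0666.

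Genes of mean CPM of 10 or more with the largest ratios were few and named. Higher in replicate 2 were CCN2, a matricellular protein, with 22.6 and 80.1 CPM (log2 ratio 1.83), the muscle ankyrin repeat gene ANKRD1 with 16.7 and 53.1 CPM (1.67) and CCN1, a relative of CCN2, with 43.1 and 87.9 CPM (1.03). COL12A1, a fibril-associated collagen, had 20.5 and 40.9 CPM and HSPA1B, a stress-inducible HSP70, had 709 and 1284 CPM. CCN2, ANKRD1 and CCN1 are known as targets of the YAP and TEAD regulators. HSPA1B and its near-identical copy HSPA1A (1368 and 2207 CPM, named after its values were seen) were both higher, and the split of reads between them is uncertain. Lower in replicate 2 were RN7SL3 with 3813 and 2195 CPM, GPRIN3 with 27.7 and 16.1 CPM, TMEM132E with 28.7 and 17.4 CPM, RNY1, a Ro-associated small RNA, with 22.4 and 13.6 CPM and VCAN, a large proteoglycan of the matrix, with 137 and 84.8 CPM. All 10 passed the exact binomial test with Benjamini-Hochberg adjustment, the largest adjusted p being 4.45e-12 for RNY1. They were chosen by their ratio in the same counts, so passing adds no support. The same holds at 10 to 100 CPM, where all 30 genes that differed by more than 1.5-fold passed.

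The cytoplasmic actins were also higher in replicate 2, with ACTG1 at 2868 and 4027 CPM and ACTB at 3038 and 3740 CPM. The 13 mitochondrial mRNAs had a median log2 ratio of 0.06. The 71 genes of the small nucleolar RNA class, which as grouped here also holds other small RNAs such as BCYRN1, had -0.32. Of the lineage markers 22 of 110 tested passed the binomial test, beside 18.2% of all genes, and of the glycolysis genes 14 of 22 passed it, at levels where small differences are called more often. At 1 to 10 CPM 6.23% of genes were called and at 100 to 1000 CPM 41.9%. The part of culture or library preparation in these differences was not tested.

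**Figure D5:**
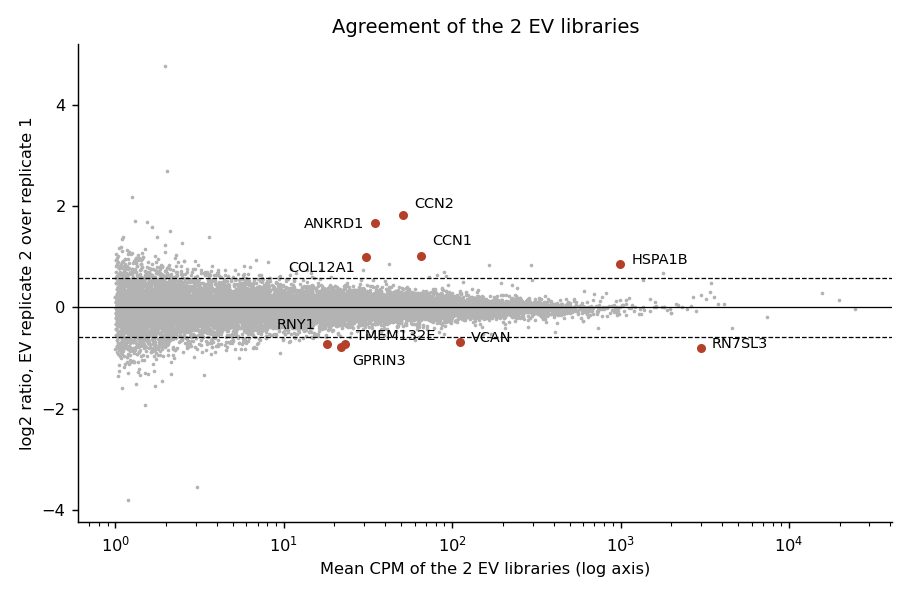
Each point is 1 gene at its mean CPM (log axis) and the log2 ratio of EV replicate 2 to EV replicate 1. Dashed lines mark a 1.5-fold difference in either direction, and red points are the 5 genes in each direction with the largest ratio among genes of 10 CPM or more. CCN2 and ANKRD1 stand apart at 1.83 and 1.67, and the spread is widest at 1 to 10 CPM.

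The promoters of the genes that stood apart were searched for GGAATG, the core that TEAD factors bind, for GAANNTTC, the inverted repeat bound by heat shock factors, and for TATAAA, on both strands, all chosen after the data were seen. GGAATG was present in 11.6% of all matched promoters and GAANNTTC in 5.49%. CCN2 (chr6:131951323-131951622, minus strand) holds GGAATG 3 times, at 169, 104 and 95 bases before the start, and ANKRD1 (chr10:90921038-90921337, minus strand) holds it at 220 and 128 bases before the start. HSPA1B (chr6:31827488-31827787, plus strand) holds GAANNTTC 105 bases and TATAAA 29 bases before the start. TMEM132E, which was lower in replicate 2, also holds GGAATG, at 224 and 217 bases before the start, as does COL12A1 at 167. GAANNTTC is also found in HSPA1A, in ANKRD1 at 123 bases before the start and, at 133 and 67, in IL1B, which had no count. CCN2 has TATAAA 32 bases before its start. No promoter entry was matched for CCN1. A match is a description of these letters and not a bound site. Capitals mark GGAATG in the first pair and GAANNTTC and TATAAA in HSPA1B, on the gene's strand.
CCN2: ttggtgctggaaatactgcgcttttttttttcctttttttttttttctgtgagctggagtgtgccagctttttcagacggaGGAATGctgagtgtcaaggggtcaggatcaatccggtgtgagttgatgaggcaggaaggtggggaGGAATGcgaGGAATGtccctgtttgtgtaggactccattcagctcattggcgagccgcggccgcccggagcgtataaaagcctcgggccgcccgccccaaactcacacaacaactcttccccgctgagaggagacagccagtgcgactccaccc
ANKRD1: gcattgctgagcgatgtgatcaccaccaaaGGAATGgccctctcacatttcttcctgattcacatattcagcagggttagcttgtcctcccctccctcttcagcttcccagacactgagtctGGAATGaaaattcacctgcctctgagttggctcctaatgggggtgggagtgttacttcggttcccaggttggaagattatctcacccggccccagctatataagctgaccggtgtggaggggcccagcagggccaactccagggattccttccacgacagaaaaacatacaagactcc
HSPA1B: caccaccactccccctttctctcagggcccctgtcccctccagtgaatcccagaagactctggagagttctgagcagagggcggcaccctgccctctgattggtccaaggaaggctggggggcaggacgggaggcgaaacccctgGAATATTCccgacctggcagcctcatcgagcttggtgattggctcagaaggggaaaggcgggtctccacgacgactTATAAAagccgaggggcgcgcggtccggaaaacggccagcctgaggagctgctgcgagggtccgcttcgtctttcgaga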

How the data were processed

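RNA of the 2 EV libraries was sequenced by the authors after ribosomal depletion. They clipped reads with the Fastx Toolkit, removed ribosomal reads with Bowtie, mapped the rest to hg19 with TopHat2 on Ensembl gene models and counted them with featureCounts. What was deposited is a table of raw counts, 1 whole number for each gene and library, with totals of 24883624 and 27845834. From these, CPM of the library total were computed. Symbols, classes, lengths and overlaps came from GENCODE v44 lifted to GRCh37, which matched 96.1% of 57773 identifiers, and promoters from RefSeq (GRCh38.p14), matched by symbol.

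Replicates were compared by chi-square and an exact binomial test (scipy 1.17.1) with Benjamini-Hochberg adjustment over 17273 genes and a threshold of 0.05, and edgeR 4.0.16 gave the dispersion. Log2 ratios used a prior of 0.5 counts. The labels call the libraries biological duplicates, and no comparison of groups was made. In simulated libraries of 17296 genes, 175 of 200 genes changed 2-fold were called with the right sign. These were 125 of 125 at 10 CPM or more and 50 of 75 below, with 10 other calls. No gene was called where none was changed. The simulation held counting error alone, which the test assumes, so it checks the code only. It says nothing about calls in the real libraries, whose chi-square per degree of freedom was 8.31. A bar of more than 190 recovered genes, set first, was replaced after it failed, by agreement with the number expected from power at this depth, 176.1.

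Members and lists (869 genes in 48 lists, 862 matched) were chosen with earlier results of these data known. Named are the members of these lists (in each, the 4 highest by CPM, those at 0 where few, otherwise defining markers). Also named are the 15 genes with most counts and the 15 protein-coding genes highest per kb. The 5 genes of the lncRNA class with most counts are named too. So are the 5 genes in each direction with the largest ratio at 10 CPM or more. Alternatives were other scalings (TMM, DESeq2 1.42.0), thresholds, lengths and adjustments, and leaving out each library. The DESeq2 size factors were estimated over all 6 libraries of the series, and the TMM factors over the 2 EV libraries. Some members of the lists are counted but not reported here by name.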

Additional observations from a re-analysis of the deposited data

How the results depend on the processing

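No paired analysis was possible because 1 group of 2 libraries was described and no groups were compared. Without a filter, 33220 genes had a count, against 16780 expressed at 1 CPM. Leaving mitochondrial genes and the 10 genes with most counts out of the total moved the protein-coding share to 95.3% of counts, as its construction implies. At 5 CPM in both libraries 60 lineage markers were expressed in place of 109. Bonferroni adjustment left 733 genes beyond counting error in place of 3150, and the median dispersion of DESeq2 gave a coefficient of variation of 0.104 in place of 0.0666. The share of promoters with 15 or more CG was 80.8% and 86.8% for expressed genes at thresholds of 0.5 and 5 CPM, and 24.2% and 35.2% for genes not expressed, or 15.8% for genes with no count. The other scalings and leaving out either library kept the counts of expressed genes, lineage markers and pathway members within 1.5 times. Of 406 further values, which are the counts of 48 lists and of protein-coding genes, 32 moved by more, all under other thresholds. With 2 libraries, an SD is itself imprecise.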
